A study of Mus musculus with 4 samples.

Results

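Chromatin loops of the hormone-deprived uterus were read from 2 Hi-C libraries made with the Arima kit, both of wild-type mice that had been ovariectomised and then given vehicle. The members described here are the loops called in both libraries, 8061 of the 16387 loops of vehicle replicate 2, matched to 8043 of the 9385 loops of vehicle replicate 3. Matching widened each anchor by 10 kb at either end and required that both overlap the anchors of 1 loop in the second library. The 4 libraries of the series held 59353 loops in all. The mice were C57BL/6J females over 10 weeks old, rested for 10 to 14 days after removal of the ovaries, and the wild-type vehicle animals received 100 ul of saline into the abdominal cavity. The whole uterus was frozen 1 h later, so epithelium, stroma, muscle, vessels and immune cells were measured together. The other libraries used were 1 of wild-type uterus 1 h after 1 mg of progesterone in sesame oil under the skin (replicate 2), and 1 of uterus of the genotype Ex3aERKO, which lacks estrogen receptor alpha, after saline (replicate 1). Those mice were ovariectomised on the same schedule, so every library of the series came from animals without ovaries. The sources used here do not say whether a library came from 1 animal or a pool, or whether the vehicle replicates are different animals.

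A loop in Hi-C is a pair of distant DNA segments, the anchors, that are joined and sequenced together more often than their surroundings. Many loops form when the ring-shaped cohesin complex extrudes DNA until it meets the zinc finger protein CTCF at both anchors, and others join a promoter to an enhancer. In the uterus, estrogen and progesterone act through nuclear receptors that bind largely at enhancers far from the genes they regulate. The loops present without ovarian hormone are the background on which such contacts are read.

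The deposited lists give positions only. Depth and loop strength are therefore unknown, and a loop missing from a list may still have been present below the calling threshold. Intervals in parentheses are exact (Clopper-Pearson) 95% binomial intervals. They cover counting error only, and neighbouring loops are not independent. With 1 pair of libraries of 1 group no test was made, and all differences are descriptions of these libraries. Loop positions carry no measure of hormone status, so the label of hormone deprivation could not be checked against them.

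Promoters of genes at the repeating and the non-repeating loops are shown to place the anchors in sequence, as the 250 bases before the transcription start, 5′ to 3′ on the strand of the gene, from RefSeq on GRCm38.p6, the assembly behind mm10. Capitals mark the GC box (GGGCGG or its complement CCGCCC, the site of Sp1 family factors) and, in Cebpb, also the 12-letter CTCF core consensus, which overlaps a GC box there. Kctd12 (chr14:102982638-102982887, minus strand) had 6 loops of vehicle replicate 2 at its start that were called in both lists, Jun (chr4:95052223-95052472, minus strand) and Nr2f2 (chr7:70366747-70366996, minus strand) had 5 each, and Cebpb (chr2:167688665-167688914, plus strand) had 2. Lmo4 (chr3:144205256-144205505, minus strand) had 5 loops in vehicle replicate 2 and none of them was in vehicle replicate 3.
Kctd12: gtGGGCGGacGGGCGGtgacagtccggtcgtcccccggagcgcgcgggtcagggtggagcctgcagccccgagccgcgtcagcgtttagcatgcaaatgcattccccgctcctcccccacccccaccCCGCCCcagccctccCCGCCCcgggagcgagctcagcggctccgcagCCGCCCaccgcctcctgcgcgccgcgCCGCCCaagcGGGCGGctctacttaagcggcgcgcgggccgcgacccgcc
Jun: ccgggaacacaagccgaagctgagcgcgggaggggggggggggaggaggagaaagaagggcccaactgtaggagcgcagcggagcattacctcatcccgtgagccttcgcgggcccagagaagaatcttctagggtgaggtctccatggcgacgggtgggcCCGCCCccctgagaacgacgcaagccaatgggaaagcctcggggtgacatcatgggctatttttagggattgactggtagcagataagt
Nr2f2: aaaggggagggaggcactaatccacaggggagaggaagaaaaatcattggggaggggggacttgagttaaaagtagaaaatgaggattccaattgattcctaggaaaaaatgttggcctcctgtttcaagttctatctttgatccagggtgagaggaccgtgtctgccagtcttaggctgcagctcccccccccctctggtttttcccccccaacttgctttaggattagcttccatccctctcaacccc
Cebpb: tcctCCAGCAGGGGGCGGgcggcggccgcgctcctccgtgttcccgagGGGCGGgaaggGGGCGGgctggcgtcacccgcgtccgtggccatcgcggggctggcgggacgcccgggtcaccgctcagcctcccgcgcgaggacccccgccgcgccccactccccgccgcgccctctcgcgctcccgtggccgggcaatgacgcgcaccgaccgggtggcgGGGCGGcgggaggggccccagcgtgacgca
Lmo4: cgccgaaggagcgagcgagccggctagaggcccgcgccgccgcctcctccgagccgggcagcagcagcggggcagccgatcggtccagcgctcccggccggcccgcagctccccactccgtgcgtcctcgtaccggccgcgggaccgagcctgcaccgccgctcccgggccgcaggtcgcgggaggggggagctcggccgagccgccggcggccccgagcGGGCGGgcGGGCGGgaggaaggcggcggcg

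Kctd12 held 7 GC boxes and Nr2f2 held 0, so the genes with many repeating loops did not share this sequence. Jun held 1, Cebpb 4 and Lmo4 2. Over all 21045 RefSeq promoters of this length, 43.1% held a GC box and 0.532% (0.438 to 0.640) a CTCF core on either strand. The start lay in an anchor of a loop called in both lists for 2639 promoters, of which 58.5% held a GC box and 1.1% (0.737 to 1.57) a CTCF core. For the 3071 promoters in other vehicle replicate 2 anchors these shares were 58.2% and 0.814% (0.528 to 1.2), and for the 14468 promoters at no anchor of either list 36.7% and 0.366% (0.274 to 0.479). Promoters at loops, repeated or not, thus held both sequences more often than promoters at no loop. Their bases were also richer in G and C, with medians of 60.8% at both kinds of anchor and 53.6% at none. Between promoters of repeated and of single-list loops the intervals of the CTCF core overlapped. The AP-1 site TGANTCA, which is bound by Jun and Fos proteins and is its own complement, was in 106 of the 2639 promoters at repeated loops (4.02%), in 119 of the 3071 (3.88%), and in 7.12% of those at no anchor. The 28 genes whose promoter held a CTCF core and whose start lay at a repeated loop included Cebpb, Cbl, which encodes a ubiquitin ligase, and Cldn1, a tight junction gene. Sequence at the distal anchors was not used here.

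The loops called in both lists were mostly fine-grained and of middle length. Of the 8061, in vehicle replicate 2 positions, 5865 (72.8%) had 5 kb anchors, 1606 (19.9%) had 10 kb anchors and 590 (7.32%) had 25 kb anchors. Their median length was 200 kb, with quartiles of 100 and 400 kb. The 8326 loops of vehicle replicate 2 alone had 5 kb anchors in 45.2% of cases and a median length of 165 kb. In vehicle replicate 3 positions the repeated loops had the same median and quartiles, but 45.4% had 5 kb, 33.6% had 10 kb and 21.0% had 25 kb anchors. The difference lies in how the same loop was listed: of the 8061 nearest pairs, 59.8% had equal anchor widths, 37.5% were wider in vehicle replicate 3 and 2.78% were wider in vehicle replicate 2. Of the pairs of equal width, 65.7% had identical midpoints and 95.8% lay within 1 bin. Matches were nearly always single, as 8047 of the 8061 loops met exactly 1 loop of the other list.

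The overlap was unequal in the 2 directions, as were the lists in size. Of the vehicle replicate 3 list 85.7% (85.0 to 86.4) was found in vehicle replicate 2, and of the vehicle replicate 2 list 49.2% (48.4 to 50) was found in vehicle replicate 3. Vehicle replicate 2 had 1.75 times as many loops. This excess was not even: the ratio was 2.44 at 5 kb anchors (9624 against 3953), 1.41 at 10 kb (4590 against 3253) and 0.997 at 25 kb (2173 against 2179). By length the ratio was 2.35 under 60 kb, between 1.57 and 1.88 from 60 to under 2000 kb, and 2.70 at 2000 kb and over. A low share of vehicle replicate 2 loops is therefore read below together with the share in the opposite direction.

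Wide anchors repeated least in both directions. Of the vehicle replicate 2 loops, 60.9% (60 to 61.9) repeated at 5 kb anchors, 35.0% (33.6 to 36.4) at 10 kb and 27.2% (25.3 to 29.1) at 25 kb. Of the vehicle replicate 3 loops the shares were 92.3% (91.4 to 93.1), 83.1% (81.7 to 84.3) and 77.7% (75.8 to 79.4). The intervals of the 3 widths did not overlap in either library. Where a match had to have the same anchor width, the vehicle replicate 2 shares were 36.4%, 17.6% and 23.4%, so that 10 kb anchors repeated least. Wide anchors hold longer loops, and the order held within 1 length class: among vehicle replicate 2 loops of 200 to under 400 kb the shares were 75.6%, 38.2% and 29.8%. At 25 kb the lists were nearly equal in size, and 72.9% of the loops went unmatched in vehicle replicate 2 and 22.4% in vehicle replicate 3. Of the 1692 vehicle replicate 3 loops with 25 kb anchors that did match, 32.0% met a 5 kb loop, 38.0% a 10 kb loop and 30.0% a 25 kb loop of vehicle replicate 2.

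**Figure D1:**
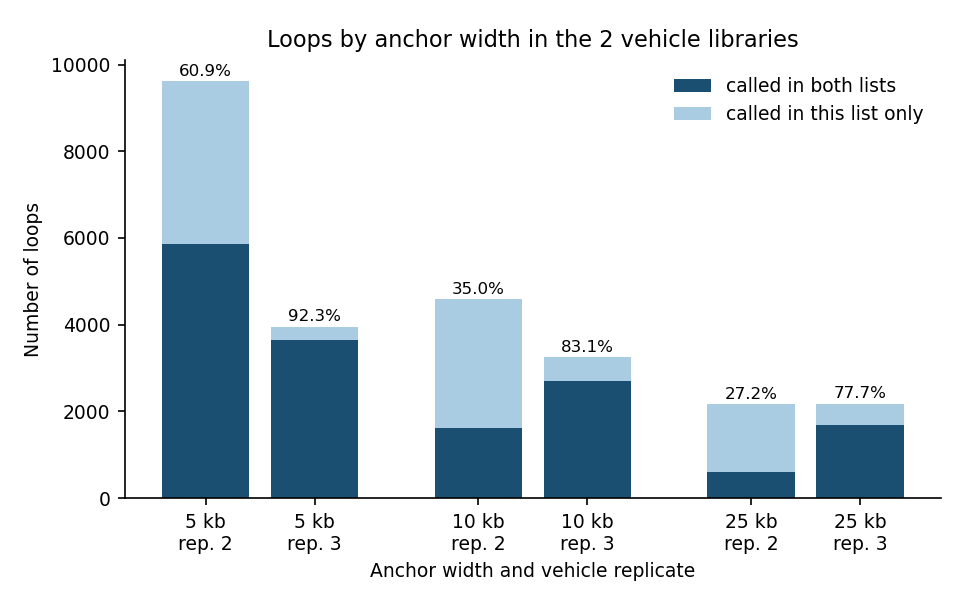
Number of loops (vertical axis) by anchor width and vehicle replicate (horizontal axis), divided into loops called in both lists (dark) and in that list only (light), with the share called in both above each bar. At 5 kb the bars differ most in height (9624 against 3953 loops), and at 25 kb they are of nearly equal height but 27.2% against 77.7% of the loops repeat.

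The shortest and the longest loops repeated least. Among vehicle replicate 2 loops the share was 35.7% (33.8 to 37.6) under 60 kb and 45.6% at 60 to under 100 kb. It was 53.4% at 100 to under 200 kb, 55.9% (54.3 to 57.5) at 200 to under 400 kb, 52.3% at 400 to under 800 kb and 46.4% at 800 to under 2000 kb. At 2000 kb and over it was 26.9% (20.7 to 33.9), or 50 of 186 loops. The vehicle replicate 3 shares moved far less, from 82.8% (80.3 to 85.1) under 60 kb to 87.3% (84.6 to 89.7) at 800 to under 2000 kb, and 72.5% (60.4 to 82.5) of its 69 longest loops repeated. Where a match had to have the same anchor width, the vehicle replicate 2 share under 60 kb (28.1%) was above those at 400 to under 800 kb (26.6%), 800 to under 2000 kb (22.2%) and 2000 kb and over (13.4%), so the low place of short loops did not hold there. By the 10 kb rule, most short loops of vehicle replicate 3 were in the longer list, while most short loops of vehicle replicate 2 had no counterpart.

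Within 5 and 10 kb anchors the short loops again repeated least, while the position of the longest loops depended on the anchor width. At 5 kb anchors the vehicle replicate 2 share rose from 37.3% (35.2 to 39.4) under 60 kb through 53.0% and 67.4% to 75.6% (73.6 to 77.5) at 200 to under 400 kb, and stayed at 76.6% and 75.9% up to 2000 kb. At 10 kb anchors it was 23.1% in both of the classes under 100 kb and 46.9% (42.3 to 51.5) at 800 to under 2000 kb. At 25 kb anchors, which hold no loop under 100 kb, it was 29.8% at 200 to under 400 kb and 16.2% (9.53 to 24.9) at 2000 kb and over. Of the longest loops 12 of 20 repeated at 5 kb anchors, 22 of 67 at 10 kb and 16 of 99 at 25 kb. Set against loops of 100 to under 200 kb, the longest loops were 26.5 percentage points less often repeated over all widths. Within 25 kb anchors the gap was 10.8 points. Within 10 kb anchors it turned to 4.19 points more often, with a 95% half-width of 12.1 points.

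**Figure D2:**
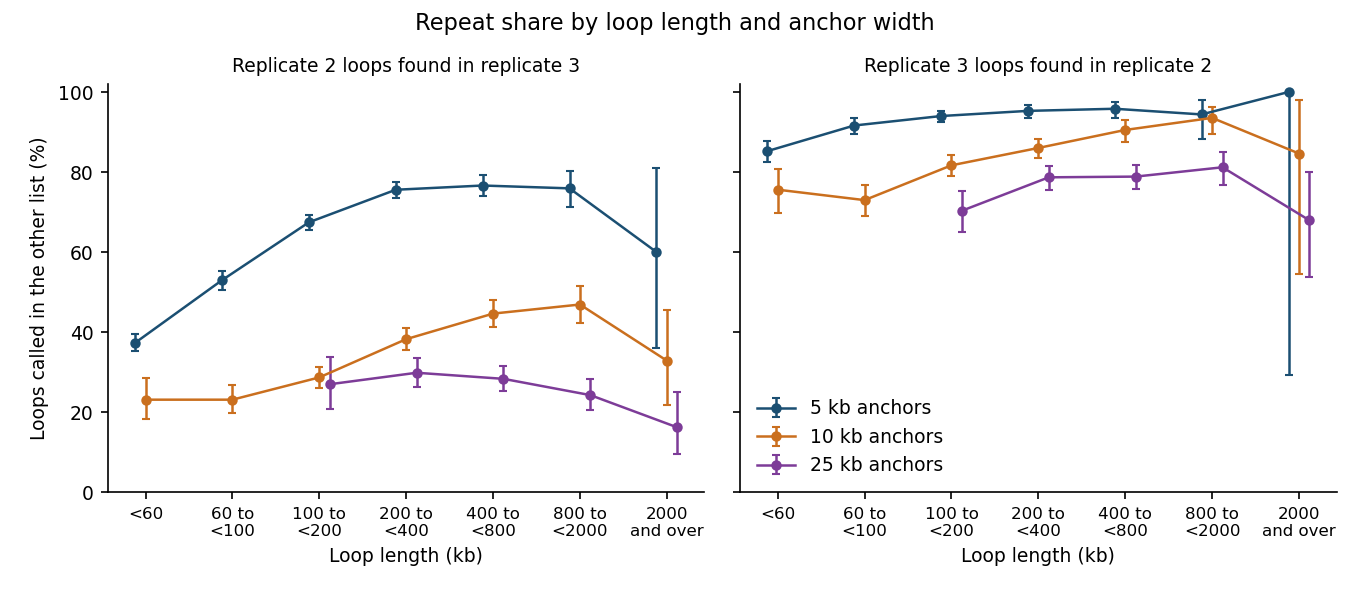
Share of loops called in the other vehicle list in percent (vertical axis) by loop length class in kb (horizontal axis), for vehicle replicate 2 loops (left) and vehicle replicate 3 loops (right), with 1 line for each anchor width and bars for exact 95% intervals. The 5 kb line of the left panel climbs from 37.3% to 76.6%, and the 25 kb line stays below 30% throughout. The 5 kb interval at the far right of the right panel is wide because that class holds 3 loops.

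Chromosomes differed little. Over the autosomes the vehicle replicate 2 shares ranged from 46.4% on chromosome 12 to 52.3% on chromosome 11, and 46.2% (40.6 to 51.7) of the 325 X loops repeated against 49.3% of the autosomal loops. The vehicle replicate 3 shares were 81.1% (74.7 to 86.5) on X and 85.8% on autosomes. The X intervals overlapped the autosomal ones in both directions.

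Single-list loops often shared anchors with the other list. An anchor counted as in use where an anchor of the other list overlapped it after 10 kb was added. Wide anchors and a longer list give more chances of such an overlap, and no share for arbitrary positions was computed. Of the 8326 loops of vehicle replicate 2 alone, 30.7% had both anchors in use by other loops of vehicle replicate 3, 51.0% had 1 anchor in use and 18.4% had none. A vehicle replicate 3 loop lay within 25 kb at both anchors for 9.49% of them and within 50 kb for 21.5%. Of the 1342 loops of vehicle replicate 3 alone, 52.0% had both anchors in use in vehicle replicate 2, 42.8% had 1 and 5.22% had none, and 36.6% had a loop within 25 kb. At least 1 anchor of most single-list loops was thus an anchor in the other list too. The shortest loops differed: of those under 60 kb in vehicle replicate 2 alone, 33.7% had neither anchor in use. Over all lengths that share was 21.8% at 5 kb anchors, 17.2% at 10 kb and 12.3% at 25 kb, and loops under 60 kb had no 25 kb anchors. By number of loops at the busier anchor, the vehicle replicate 2 share was 43.7% (41.7 to 45.7) for loops whose anchors held no other loop, 51.9% with 2 loops, 50.3% with 3 or 4, and 45% (42.9 to 47.1) with 5 or more. In vehicle replicate 3 it ran from 83.1% to 88.8% in the same order. Within 5 kb anchors the vehicle replicate 2 share was 50.5% for loops alone at their anchors, 63.4% with 3 or 4 loops and 59.9% with 5 or more. At 10 kb these shares were 30.2%, 36.6% and 34.9%, and at 25 kb 28.2%, 27.9% and 28.2%.

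Repeated loops were also listed more often in the libraries that the matching did not use. Of the 8061 repeated loops, 84.9% (84.1 to 85.7) were found after progesterone and 90.0% (89.3 to 90.6) in the ERα knockout, and 79.2% in both. Of the vehicle replicate 2 loops absent from vehicle replicate 3, 32.3% (31.3 to 33.3) and 59.1% (58.1 to 60.2) were, and 66.9% were in at least 1 of these lists. Of the loops of vehicle replicate 3 alone, 32.9% and 47.2% were found. The remaining 33.1% of the loops of vehicle replicate 2 alone were in no other list. This last share was 24.3% at 5 kb anchors, 37.2% at 10 kb and 46.4% at 25 kb. The comparison is of single libraries with lists of 11752 and 21829 loops, and the longer list has more chances to match.

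Loops with a gene end at both anchors repeated less than loops with a gene end at neither. A gene was counted at an anchor when its start or end lay inside. An anchor within a gene body thus counts as holding none, and both anchors may hold ends of the same gene. Of the vehicle replicate 2 loops, 54.8% (53.8 to 55.9) repeated where neither anchor held a gene end, 47.4% (46.0 to 48.7) where 1 did and 31.9% (29.9 to 33.9) where both did. The shares in vehicle replicate 3 were 87.7% (86.7 to 88.6), 85.6% (84.3 to 86.8) and 77.5%. By transcription start alone the vehicle replicate 2 shares were 53.9%, 42.8% and 30.7%. Loops with no gene end between their anchors repeated in 37.3% of cases, against 53.0% for loops that spanned one, a division that goes with length.

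The gap between loops with gene ends at both anchors, called genic here, and at neither was largest at 5 kb anchors and small at wide ones. At 5 kb anchors the vehicle replicate 2 shares for 0, 1 and 2 anchors with a gene end were 66.1%, 58.8% and 40.0%. At 10 kb they were 38.3%, 32.8% and 27.6%, and at 25 kb 28.2%, 29.5% and 22.4%. Genic loops had a median length of 150 kb and 5 kb anchors in 45.7% of cases. Loops with a gene end at neither anchor had 210 kb and 62.7%. Within classes of equal width and length that held at least 20 loops, the genic share was the lower in 14 of 16 classes of vehicle replicate 2, with intervals apart in 5, and in 8 of 13 classes of vehicle replicate 3, with intervals apart in 1. In the libraries not used for matching the same vehicle replicate 2 loops gave a wide gap in the progesterone list. The shares there were 62.6% (61.6 to 63.6) with a gene end at neither anchor and 44.8% (42.7 to 46.9) for genic loops. In the longer knockout list the gap was narrow, at 75.3% (74.4 to 76.3) and 71.3% (69.3 to 73.2).

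**Figure D3:**
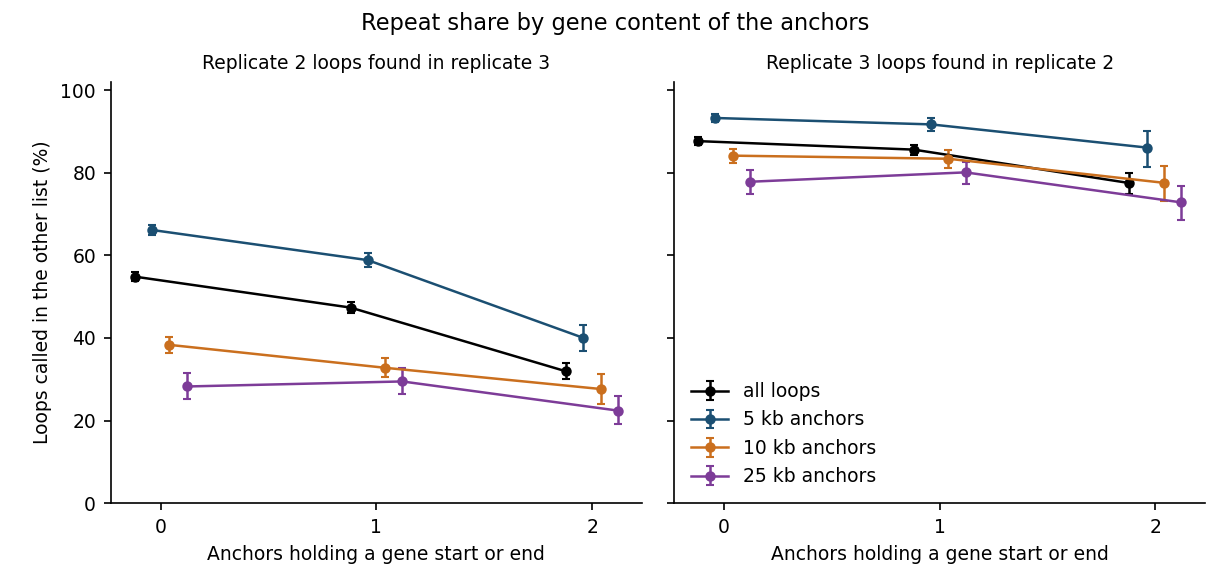
Share of loops called in the other vehicle list in percent (vertical axis) by the number of anchors that hold a gene start or end (horizontal axis), for vehicle replicate 2 loops (left) and vehicle replicate 3 loops (right), for all loops (black) and each anchor width (colours), with exact 95% intervals. On the left the black points fall from 54.8% to 31.9%, and on the right from 87.7% to 77.5%.

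Of 21631 protein-coding genes, 7428 had a start or end at a vehicle replicate 2 loop and 5170 at a vehicle replicate 3 loop. At loops called in both lists there were 3724 genes in vehicle replicate 2 positions, or 17.2% of all genes. They were 4336 in vehicle replicate 3 positions, whose anchors are wider, and 3230 in both. Most of the 3724 had 1 repeated loop (2832), 698 had 2, 146 had 3, 39 had 4, 6 had 5 and 3 had 6. For 1933 genes every vehicle replicate 2 loop was repeated. For 3704 of the 7428 genes (49.9%) none was, and 3442 genes with vehicle replicate 2 loops had no vehicle replicate 3 anchor at all. A gene with more loops has more chances that 1 of them repeats: 35.3% of genes with 1 vehicle replicate 2 loop had a repeated one, 64.4% of those with 2, 80.3% of those with 3 or 4, and 151 of the 156 (96.8%) with 5 or more.

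The genes with the most repeated loops had 4 to 6 of them. The tenth, Adra2a, is 1 of 39 genes tied at 4 and was taken by the finest anchor and then by symbol order. Kctd12, which encodes an auxiliary subunit of the GABA-B receptor, had 9 loops in vehicle replicate 2, of which 6 were in vehicle replicate 3, and 7 in vehicle replicate 3, of which all 7 were in vehicle replicate 2. Maf, a leucine zipper factor, had 12 loops with 6 repeated, against 4 of 4 in vehicle replicate 3. Snai2, the zinc finger repressor of mesenchymal cells, had 10 with 6 repeated, against 6 of 6. In each of these genes the shorter list was contained in the longer one.

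Jun, the AP-1 subunit, had 11 loops with 5 repeated, against 5 of 5. Nr2f2 encodes COUP-TFII, an orphan nuclear receptor of the uterine stroma, and had 12 loops with 5 repeated, against 4 of 4. Plpp3, a lipid phosphate phosphatase gene, had 8 with 5 repeated, against 2 of 3. Irf2bp2, which encodes a corepressor, and Zfp703, a zinc finger gene, had 6 each with 5 repeated, Sntg2, a syntrophin gene, had 5 of 5 repeated, and Adra2a, the alpha-2A adrenergic receptor gene, had 4 of 6. Over these 10 genes the 52 repeated vehicle replicate 2 loops had a median length of 445 kb and 38 had 5 kb anchors. Of them, 46 were found after progesterone and 48 in the knockout. The 33 single-list loops at the same genes, of median length 430 kb, were found there in 12 and 23 cases. The genes were chosen by their count of repeated loops, so the counts in the vehicle lists are a description.

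**Figure D4:**
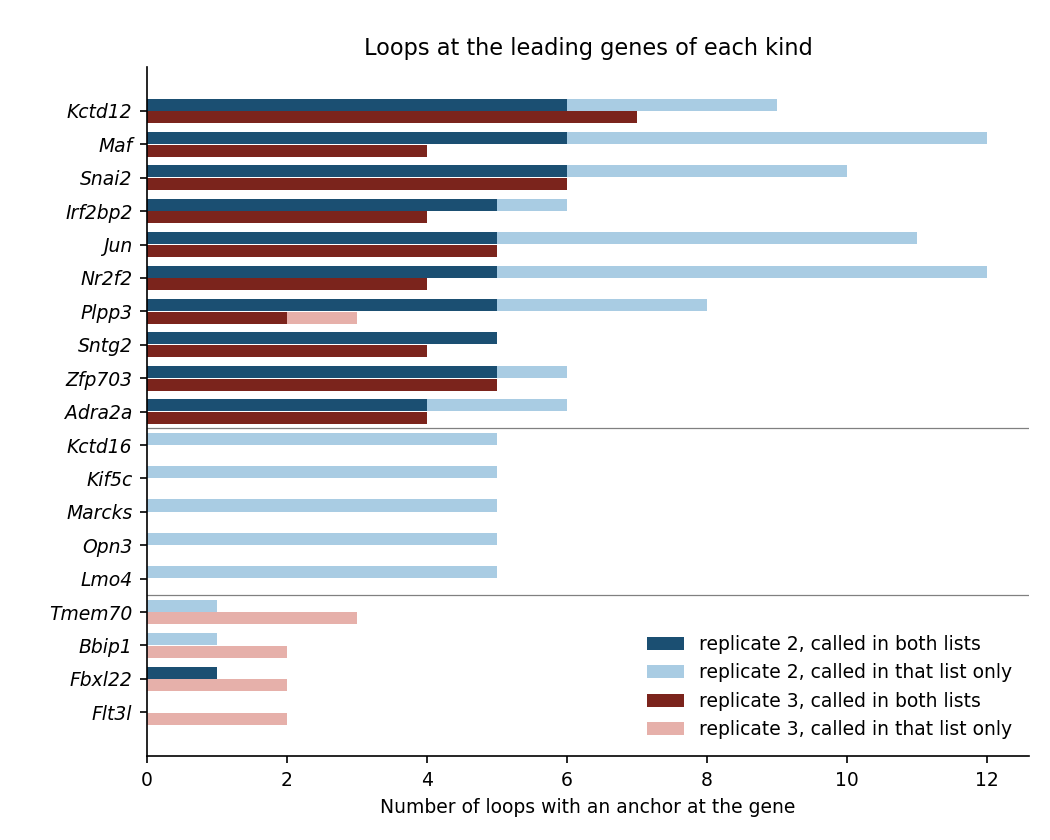
Number of loops with an anchor at the gene (horizontal axis) for the genes with most repeated loops (top), most vehicle replicate 2 loops of which none repeated (middle) and most vehicle replicate 3 loops of which none repeated (bottom), with vehicle replicate 2 in blue, vehicle replicate 3 in red, and loops called in both lists in the dark shade. In the top group 9 of the 10 vehicle replicate 3 bars are dark throughout, Plpp3 being the exception.

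At Kctd12, Snai2 and Sntg2 the repeated loops ran from overlapping anchors at the gene. All 9 Kctd12 loops of vehicle replicate 2 ran to lower coordinates on chromosome 14, and the repeated ones were 85, 125, 470, 625, 800 and 1035 kb long. The 3 that did not repeat were 175, 220 and 375 kb long and lay between the repeated ones. At Snai2 all 10 ran from chromosome 16 position 14700001 to higher coordinates, and the repeated ones were 190, 230, 380, 410, 590 and 930 kb long. Sntg2 at chromosome 12 position 30370001 had repeated loops on both sides, of 170, 245, 320 and 470 kb to the left and 210 kb to the right.

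Jun (chromosome 4, 95049036 to 95052222) had repeated loops of 110, 220, 265, 690 and 820 kb. Its single-list loops were 40 and 50 kb long at the near end and 325, 430, 505 and 585 kb long in between, and 4 of these 6 were found after progesterone and all 6 in the knockout. The 820 kb loop was the reverse: it was in both vehicle lists and in neither of the other lists. Nr2f2 (chromosome 7, 70351946 to 70366746) had repeated loops of 455, 865, 875, 1015 and 1045 kb, and those of 35, 50 and 260 kb did not repeat but were in the knockout list. Irf2bp2 had repeated loops of 75, 95, 145, 245 and 330 kb, all of which were in both other libraries too.

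**Figure D5:**
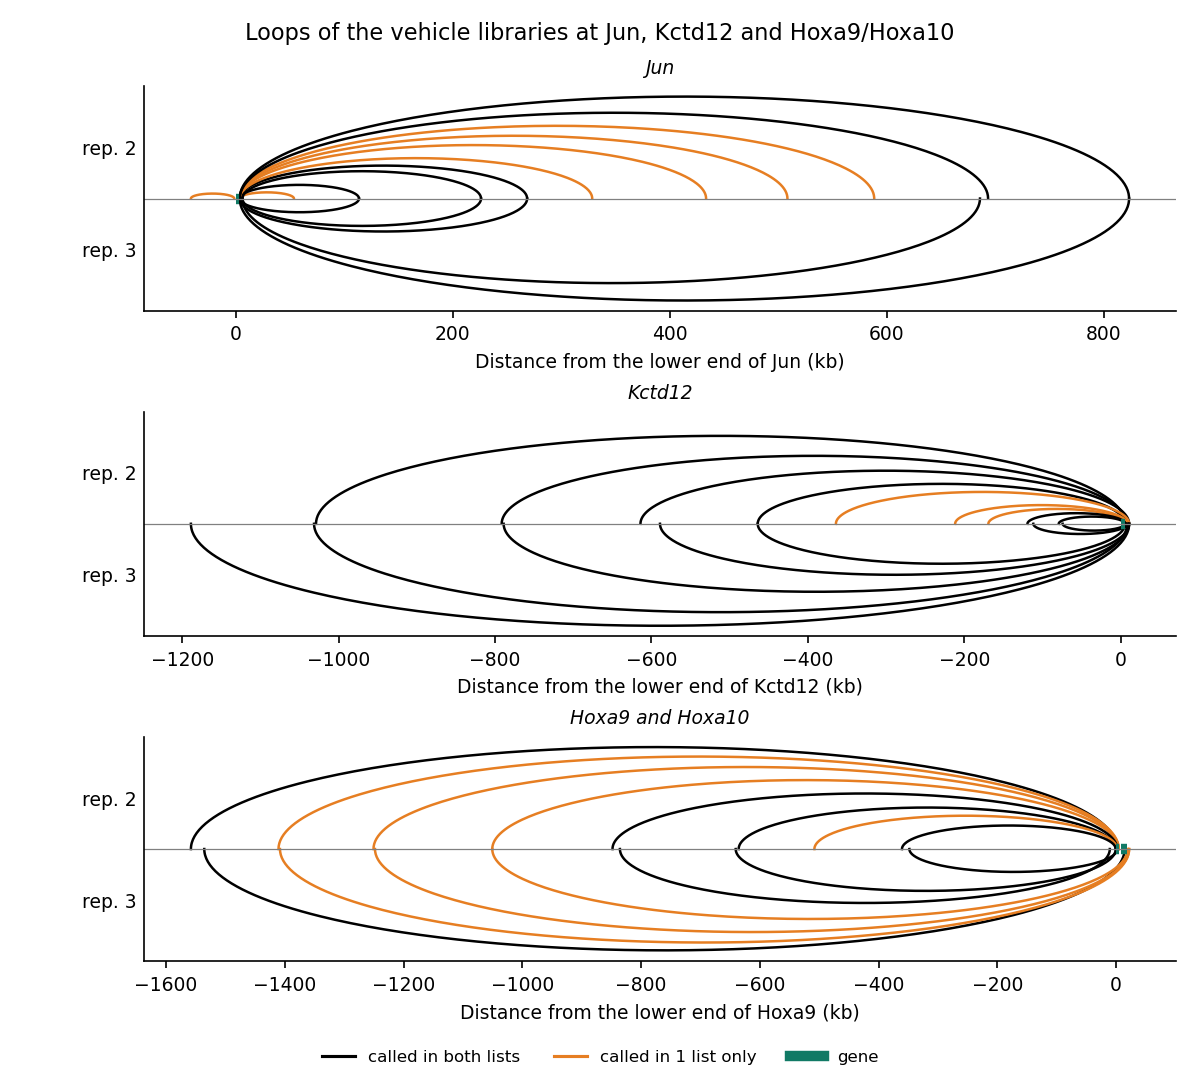
Arcs join the midpoints of the anchors of each loop at Jun, Kctd12 and at Hoxa9 or Hoxa10 (horizontal axis, distance in kb from the lower end of the named gene along the reference), with vehicle replicate 2 above and vehicle replicate 3 below the line, loops called in both lists in black and in 1 list in orange. Only loops with an anchor at the gene in that list are drawn. At Jun the 6 orange arcs are all above the line, and at the Hoxa genes the 3 orange arcs below and 3 of the 4 above reach about the same distal points and are 1055 to 1430 kb long. The fourth above is 510 kb long.

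The genes that repeated least had several vehicle replicate 2 loops and no repeated one. Kctd16, a relative of Kctd12, Kif5c, a kinesin heavy chain gene, Marcks, a protein kinase C substrate gene, Opn3, an opsin gene, and Lmo4, a LIM-only protein gene, had 5 vehicle replicate 2 loops each and no vehicle replicate 3 loop. They are the 5 exceptions among the 156 genes with 5 or more loops. All 5 Lmo4 loops had 25 kb anchors, with lengths of 175, 500, 625, 1325 and 1700 kb, and 4 of them were in the knockout list. The 5 Marcks loops had 5 and 10 kb anchors and lengths of 60 to 1415 kb, and 4 were found after progesterone and 4 in the knockout. Over the 5 genes, 11 of the 25 loops had 25 kb anchors, 9 were found after progesterone and 18 in the knockout. With 25 kb added to the anchors none of the 25 gained a match in vehicle replicate 3.

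In the opposite direction the counts were small. Tmem70, an ATP synthase assembly gene, had 3 vehicle replicate 3 loops of which none was in vehicle replicate 2. Bbip1, Fbxl22 and Flt3l, the gene of the ligand of the receptor Flt3, had 2 each. Tmem70 and Bbip1 also had 1 vehicle replicate 2 loop each, which did not repeat, and Fbxl22 had 1, which did repeat. All 3 loops of Tmem70 had 25 kb anchors, and 1 was found after progesterone and 2 in the knockout. With 25 kb added to the anchors, 1 loop each of Bbip1, Fbxl22 and Flt3l gained a match, and none of Tmem70.

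Genes that respond early to estrogen were often at repeated loops. They were also often at any loop: 34 of 44 had a vehicle replicate 2 loop, against 34.3% of all genes. Of the 44, 23 (52.3%, against 17.2% of all genes) had a repeated loop, and 11 had vehicle replicate 2 loops of which none repeated. Of their 100 vehicle replicate 2 loops 51 repeated (51.0%, 40.8 to 61.1). Loops at any gene repeated in 43.1% of cases, which lies inside this interval. The vehicle replicate 3 loops of the 44 genes repeated in 54 of 62 cases. Fosl2, an AP-1 subunit gene, and Klf6, a zinc finger factor gene, had 4 of 5 repeated. Vegfa, the vascular growth factor gene, Cebpd and Bhlhe40 had 3 of 3, and Myc had 3 of 12. The AP-1 genes were uneven: Fos had 2 vehicle replicate 2 loops and 1 vehicle replicate 3 loop with no match, and Junb had 1 with none. With 25 kb added to the anchors, 1 of the 2 and the 1 Fos loop matched. Egr1, Egr3, Ier2 and Ier3, immediate early genes, had 1 unrepeated vehicle replicate 2 loop each.

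Genes of progesterone response were at repeated loops in 17 of 36 cases (47.2%, against 17.2% of all genes). At any vehicle replicate 2 loop were 21 of the 36 (all genes 34.3%). Of their 68 vehicle replicate 2 loops 27 repeated (39.7%, 28.0 to 52.3), against 43.1% at any gene. Nr2f2 leads the list. Arid5b had 3 of 5 repeated, and Cebpb, required for decidualisation, 2 of 3, its 205 kb loop at identical 5 kb anchors in both lists. Ihh, the Indian hedgehog gene of the epithelium, had 2 of 2, of 70 and 305 kb, from an anchor at 74945001 to 74950000 on chromosome 1 that holds the lower end of the gene and not its start. Ptch1, the hedgehog receptor gene, had 4 loops at its outer ends and none repeated, although 1 of its alternative starts (63565735 on chromosome 13) lay at a repeated loop. Cited2 had 10 loops with 1 repeated.

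Patterning genes were at repeated loops in 18 of 36 cases (50%, against 17.2% of all genes). At any vehicle replicate 2 loop were 28 of the 36 (all genes 34.3%). Of their 78 vehicle replicate 2 loops 33 repeated (42.3%, 31.2 to 54.0), against 43.1% at any gene. Hoxa13, which acts in the lower tract, had 4 of 4 repeated, Osr1 4 of 5, Tbx2 and Wnt5a 3 of 4. Emx2, a homeobox gene of the urogenital tract, had 2 and none repeated. Hoxa9 had 8 with 4 repeated, against 4 of 4 in vehicle replicate 3, while Hoxa10 and Hoxa11 had 0 loops in vehicle replicate 2 and 4 in vehicle replicate 3 with 1 repeated. These counts depend on the match distance. With 25 kb added to the anchors 7 of the 8 Hoxa9 loops and all 4 loops of Hoxa10 and Hoxa11 matched. Of the Hoxd genes, Hoxd9 had 8 loops with 2 repeated against 4 of 4, Hoxd8 and Hoxd11 had 5 with 2, and Hoxd10 had 3 with 0 against 2 of 2 in vehicle replicate 3. Neighbouring Hox genes share anchors and loops.

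Stromal markers had the highest share of the 13 lists, 13 of 20 genes at repeated loops (65%, against 17.2% of all genes). At any vehicle replicate 2 loop were 15 of the 20 (all genes 34.3%). Of their 51 vehicle replicate 2 loops 29 repeated (56.9%, 42.3 to 70.7), an interval that holds the 43.1% at any gene. Besides Snai2, the collagen genes Col3a1 had 4 of 7 repeated, Col1a2 3 of 4 and Col1a1 2 of 2, and Pdgfra, a receptor of fibroblasts, had 3 of 5. Other stromal markers went the other way: Twist1 had 1 of 5 repeated, Col5a1 1 of 3, and Twist2 and Prrx1 0 of 1. Pdgfrb, Ogn and Mfap5 were at no loop of either list. Smooth muscle markers were at repeated loops in 9 of 17 cases (52.9%), but with 1 repeated loop each, and 12 were at any vehicle replicate 2 loop. Of their 22 vehicle replicate 2 loops 9 repeated (40.9%, 20.7 to 63.7), close to the 43.1% at any gene. Their vehicle replicate 3 loops repeated in 8 of 13 cases (61.5%), against 83.5% for loops at any gene, with a wide interval (31.6 to 86.1). Actg2, Cald1, Myl9 and Srf had 1 of 1 repeated, Myh11 1 of 2 and Acta2 1 of 3, while Des and Mylk had 0 of 1. Lmod1, leiomodin, had 3 loops in vehicle replicate 2 and 2 in vehicle replicate 3 and no match. With 25 kb added, 2 of the 3 and both of the 2 matched.

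Few epithelial, endothelial and immune markers were at repeated loops, in short lists of 14 to 20 genes for which no intervals of these shares were computed. Epithelial markers numbered 1 of 20, Elf3, with 1 of 2 loops repeated, and 18 of the 20, keratin and claudin genes among them, were at no loop of either list. Endothelial markers numbered 0 of 14, although Cdh5, Kdr, Flt1 and Cldn5 had 1 vehicle replicate 2 loop each. In vehicle replicate 3 positions Cdh5 and Erg had 1 repeated loop each. Immune markers numbered 1 of 16, Spi1, and in vehicle replicate 3 positions Cd79a also had 1 repeated loop. Of all genes, 20.05% were at repeated loops in vehicle replicate 3 positions. At any vehicle replicate 2 loop were 1 epithelial, 4 endothelial and 4 immune markers (all genes 34.3%). Of the outside lists, hepatocyte genes numbered 4 of 21 (19.05%) and neuronal genes 5 of 22 (22.7%), and housekeeping genes 3 of 20 (15%), beside the 17.2% of all genes. Loop positions do not measure expression, and fewer cells of a type and weaker looping in them cannot be told apart in whole tissue. The cause of the differences between the lists was not tested.

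Genes of steroid receptors and their coregulators were at repeated loops in 10 of 25 cases (40.0%, against 17.2% of all genes). At any vehicle replicate 2 loop were 15 of the 25 (all genes 34.3%). Of their 41 vehicle replicate 2 loops 17 repeated (41.5%), against 43.1% at any gene. Esr1, the gene of estrogen receptor alpha, had 1 of 1 repeated, a 100 kb loop from 4610001 to 4615000 to 4710001 to 4715000 on chromosome 10. In vehicle replicate 2 these anchors hold 2 of its alternative starts, at 4611989 and 4710158. The vehicle replicate 3 counterpart of 105 kb ended at 4715001 to 4720000, beside the second start, and neither call was in the other libraries. Esr1 had another vehicle replicate 3 loop, of 525 kb, that did not repeat by the 10 kb rule and was found after progesterone. With 25 kb added to the anchors it too matched a loop of vehicle replicate 2. Pgr, the progesterone receptor gene, had no vehicle replicate 2 loop and 1 unrepeated vehicle replicate 3 loop of 55 kb. This Pgr loop was found both after progesterone and in the knockout. Ep300, a histone acetyltransferase gene, had 2 of 2 repeated. Crebbp, the relative of Ep300, and Carm1, an arginine methyltransferase gene, had 2 each and none repeated. Igf1, a growth factor gene induced by estrogen, had 2 of 4 repeated, of 205 and 445 kb, at identical anchors in both lists. Genes of loop proteins were at repeated loops in 3 of 18 cases (16.7%), close to all genes: Pds5a and Pds5b, regulators of cohesin, and Yy1.

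The range of lengths was wide. The 5 shortest repeated loops in chromosome order were of 35 kb with 5 kb anchors on chromosome 1, among them one from Cdc73 to Glrx2 and one at H3f3a, a histone variant gene. The 50 repeated loops of 2000 kb and over lay on 17 chromosomes with a median of 2.49 Mb. Among them a loop of 3050 kb reached Hoxa13 with identical 25 kb anchors in both lists. A 4.60 Mb call on chromosome 2 had Nsun6 and Arl5b at its lower anchor and Otud1 at its upper anchor. On chromosome 17 a 16.2 Mb call ended at Mpnd and Stap2. A 17.2 Mb call on chromosome 16 had Gbe1 at its lower anchor and, in vehicle replicate 2 positions, Cct8 and Usp16 at its upper anchor. In vehicle replicate 3 its upper anchor began at 87500001 and held no gene end. The longest of the 50, of 54.9 Mb on chromosome 11, had no gene end at either anchor. A call in both lists does not show that loops of this length are contacts. Read mapping at their anchors was not examined. Of loops of 10 Mb and over, 3 of 14 in vehicle replicate 2 and 3 of 8 in vehicle replicate 3 repeated.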

How the data were processed

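The authors deposited 1 loop list per library, whose 6 columns (unit: other) hold chromosome, start and end of either anchor. The submitters' processing notes name mm10 and Juicer 1.5.6. How loops were called and at which thresholds is not stated in the material used here. Starts count from 0 in the lists and from 1 here. Length is the distance between anchor starts.

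Matching added 10 kb to the anchors of 1 list. Protein-coding genes (21631) and promoters (17274 of these genes have one, and none is on chromosome 18) came from RefSeq tables of GRCm38.p6. All 309 entries of the 13 gene lists matched, 1 by an older symbol. Members and lists were chosen with earlier results of these data known.

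The genes named were the 10 with most repeated loops, the 5 in each direction with most loops and none repeated, up to 4 and 2 of these kinds per list, Esr1, Pgr, Igf1, Greb1, Ihh, the Hoxa and Hoxd genes, and genes at the 5 longest and 5 shortest repeated loops; other examples were picked with their values in view, and some genes that the rule names are not reported here. Overlap matching was tested on simulated data. Alternatives were other match distances, midpoints, equal widths, 1-to-1 matching, other gene placements and leaving out a library. Software was matplotlib 3.10.9, scipy 1.17.1, pandas 2.3.3 and numpy 2.4.6 under Python 3.11.15.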

Additional observations from a re-analysis of the deposited data

How the results depend on the processing

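The share of vehicle replicate 2 loops repeated was 33.8% with 0 kb added, 46.7% with 5 kb, 54.0% with 25 kb, 52.2% with midpoints within 25 kb and 29.4% with equal widths only, and of vehicle replicate 3 loops 59.0%, 81.3%, 90.9%, 89.7% and 51.3%. In the same order, repeated loops in both the progesterone and knockout lists made up 55.8%, 74.9%, 85.1%, 84.4% and 67.8%, and the difference of 25 kb minus 5 kb anchors, -33.8 points in the main setting, was -19.6, -30.2, -38.5, -37.8 and -13.0 points, and -45.8 within loops of 200 to under 400 kb. The difference of the longest minus 100 to 200 kb loops was -12.1 points with 0 kb added, -19.3 with equal widths, -10.8 within 25 kb anchors and, with the sign turned, 4.19 within 10 kb anchors. Repeated loops numbered 4819 with equal widths. With either library left out no loop can repeat, and the count is that of the remaining list, 9385 or 16387 loops. Genes at repeated loops numbered 6019 by any part of the gene, 7513 within 10 kb of an anchor and 2245 by transcription start. Genes at any loop of the remaining list numbered 5170 or 7428. The difference between loops with gene ends at both anchors and at neither was added after seeing the data: -23.0 points in the main setting, -15.7 with 0 kb added, -26.1 within 5 kb, -10.7 within 10 kb and -5.85 within 25 kb anchors, and -10.2 in vehicle replicate 3 loops. The cause of these shifts was not tested. Widening the anchors of both lists, also added after seeing the data, gave 8584 repeated loops. With 1-to-1 matching each value stayed within its interval. No paired analysis was possible because a single group is compared within itself. Depth is unknown, so the lists could not be brought to a common depth.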

Other observations

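The loops of 10 Mb and over in either vehicle list are few, and some have near relatives that the match rule leaves apart. Vehicle replicate 2 listed a loop of 82.1 Mb on chromosome 1 from 6210001 to 6220000, at Rb1cc1, an autophagy gene, to 88270001 to 88280000, at Hjurp, a centromere histone chaperone gene. Vehicle replicate 3 listed one of 83.5 Mb from 4800001 to 4825000, at Lypla1, to 88250001 to 88275000, also at Hjurp, and one of 18.5 Mb from 6200001 to 6225000, at Rb1cc1, to 24675001 to 24700000, at Lmbrd1. Both anchors of the vehicle replicate 2 loop were thus met by long loops of vehicle replicate 3, each with another partner. The longest loop of vehicle replicate 3, of 159 Mb on chromosome 2, was not in vehicle replicate 2 but was in the progesterone list. Whether calls of this length are contacts was not tested.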
